A study of Mus musculus with 8 samples.

Results

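The hypoxia-induced genes described here are Hif1a, Vegfa, Adm, Egln3, Bnip3, Bnip3l, Ndrg1, Ankrd37, Ddit4 and Higd1a, taken by symbol from single-cell RNA matrices of MB49 tumors. MB49 is a mouse urothelial cancer cell line. All 10 symbols were found among the 19024 symbols of the 8 libraries. Tumors were grown under the skin of C57BL/6 mice, and every host received tamoxifen daily for 4 days. Hosts of libraries 1, 2, 5 and 6 were Atg7+/+ and are called wild type. Hosts of libraries 3, 4, 7 and 8 were Atg7f/f, in which tamoxifen turns the floxed alleles into Atg7∆/∆, and are called deleted. Atg7 encodes an enzyme needed to build autophagosomes, and the injected tumor cells kept their own Atg7. Each mouse was injected on both flanks 1 week after tamoxifen, giving 2 tumors, which were collected 3 weeks later. The series title asks whether host autophagy promotes growth of highly mutated tumors by restraining T cells. Which mouse each tumor came from is not in the labels, so 2 libraries of a genotype could come from 1 animal and the p-values may then be too small.

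When oxygen is plentiful, prolyl hydroxylases of the Egln family mark the alpha subunits of the hypoxia-inducible factors (HIF) for destruction by the von Hippel-Lindau ubiquitin ligase. When oxygen is short, or when inflammatory signals stabilise the subunit, HIF binds short DNA elements with the core ACGTG or GCGTG and raises genes of glycolysis, vessel growth, mitochondrial turnover and growth restraint. Solid tumors often hold oxygen-poor regions in which cancer cells and the myeloid cells that enter them use this program.

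The genes lie on 8 chromosomes of mm10 in GENCODE M21, from Adm, the shortest at chr7:110627661-110629820, to Hif1a at chr12:73901375-73947530 and Ndrg1 at chr15:66929318-66969640. RefSeq promoter windows (GRCm38.p6, the 250 bases before an annotated start) were at hand for 8 of the 10 genes, Bnip3l and Ndrg1 having no entry. At least 1 window of each of the 8 held ACGTG or GCGTG on either strand, for Vegfa only a window inside the gene. The motifs can overlap each other, and each one reads CACGT or CACGC on the opposite strand. Among all 32851 windows listed, 38.6% held a match and 16.7% held at least 2, against 8 and 7 of the 9 windows of these genes. A match is only a run of letters and was not tested for binding. The windows of 4 genes whose mean malignant-like levels were lower in deleted hosts, none passing the test, are printed to show where the matches lie, 5′ to 3′ on the strand of the gene, with every match in capitals. They are Bnip3 (chr7:138909507-138909756, minus strand, 5 matches), Adm (chr7:110627407-110627656, plus strand, 2 matches), Egln3 (chr12:54203875-54204124, minus strand, 1 match) and Ankrd37 (chr8:45999851-46000100, minus strand, 4 matches).
Bnip3: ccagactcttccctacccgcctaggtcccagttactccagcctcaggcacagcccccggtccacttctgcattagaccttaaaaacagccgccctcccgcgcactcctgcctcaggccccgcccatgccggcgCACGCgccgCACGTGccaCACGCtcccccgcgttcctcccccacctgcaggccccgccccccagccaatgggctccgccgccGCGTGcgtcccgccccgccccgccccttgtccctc
Adm: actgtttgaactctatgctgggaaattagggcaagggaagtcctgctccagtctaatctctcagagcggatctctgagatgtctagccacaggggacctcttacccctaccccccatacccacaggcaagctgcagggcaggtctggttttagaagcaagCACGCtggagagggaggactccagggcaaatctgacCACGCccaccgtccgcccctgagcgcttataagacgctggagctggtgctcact
Egln3: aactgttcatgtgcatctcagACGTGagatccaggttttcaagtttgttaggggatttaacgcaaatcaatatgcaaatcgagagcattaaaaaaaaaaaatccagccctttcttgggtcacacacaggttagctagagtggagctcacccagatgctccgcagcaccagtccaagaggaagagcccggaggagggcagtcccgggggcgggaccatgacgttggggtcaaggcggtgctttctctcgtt
Ankrd37: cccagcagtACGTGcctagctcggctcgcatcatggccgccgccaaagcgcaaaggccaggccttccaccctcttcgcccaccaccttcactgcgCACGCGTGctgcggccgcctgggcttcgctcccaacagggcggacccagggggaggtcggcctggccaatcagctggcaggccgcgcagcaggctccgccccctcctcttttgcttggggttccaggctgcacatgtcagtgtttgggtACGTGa
The matches of Bnip3 lay 35 to 117 bases before the start and those of Adm 54 to 90 bases before it, whereas the single match of Egln3 lay 229 bases before it. The window at the 5′ start of Vegfa held none. A second Vegfa window (chr17:46025164-46025413) held 2 but lies inside the gene (chr17:46016993-46032369). The bases after its start were not found in a GENCODE M21 transcript of Vegfa. Those after the start of the Hif1a window were likewise not found in a transcript of Hif1a.

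Libraries held 4371773 (deleted library 7) to 59235799 UMIs (wild-type library 6), a UMI being 1 counted RNA molecule, and 28577 of 29496 deposited cells were kept. The classes compared were malignant-like, monocyte/macrophage-like (called macrophage-like) and neutrophil-like cells, named from marker genes after clustering without the hypoxia genes. Malignant-like cells numbered 1203 to 4147 per library in wild-type hosts and 41 to 146 in deleted hosts. Monocyte/macrophage-like cells numbered 262 to 747 and 132 to 2123, and neutrophil-like cells 65 to 343 and 39 to 1426. The malignant-like cells had UMIs of 8 of 9 listed epithelial and tumor markers present in the files in wild-type hosts and of 7 of 9 in deleted hosts. Epcam was at 0 in both and Perp at 0 in deleted hosts. Median UMIs per malignant-like cell were 9634 to 16676 in wild-type hosts and 1998 to 15128 in deleted hosts. Cell barcodes fell into 2 sets, libraries 1 to 4 and libraries 5 to 8, and most clusters of malignant-like and macrophage-like cells lay mainly in 1 set. One malignant cluster, led by Hbb-bs and 2200002D01Rik, spanned both. It held 11.1%, 6.4%, 30.7% and 6.9% of malignant-like cells in wild-type libraries 1, 2, 5 and 6. In deleted libraries 3, 4, 7 and 8 it held 29.3%, 52.7%, 32.4% and 42.6%. Its cells had a median of 4957 UMIs, against 11307 to 15723 in the other malignant clusters. Each set held 2 libraries of each genotype. Pairs of libraries shared 0 to 46 barcodes. Atg7 itself (chr6:114643097-114860614) was scarce. Its level over all cells was 0.146 to 0.416 UMIs per 10000 for wild-type hosts and 0.0855 to 0.306 for deleted hosts, which overlapped. In macrophage-like cells it was at 0.180 to 0.460 and at 0 to 0.149, without overlap, and in neutrophil-like cells at 0.183 to 0.611 and 0.274 to 0.763, overlapping. The 5′ tags of this kit may lie outside the deleted part, so this checks the labels little.

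A level is a gene's UMIs per 10000 UMIs of a cell, averaged over a library's cells of that class. Differences are differences of log2(level + 0.2) from limma, with Benjamini-Hochberg adjustment over all genes tested and a threshold of 0.05. Differences between classes were taken within the 8 libraries, with library as a term. By mean level, malignant-like cells had the highest values of Adm, Higd1a and Ndrg1 among the 3, macrophage-like cells the highest of Vegfa and Hif1a, and neutrophil-like cells the highest of Egln3, Bnip3l, Bnip3, Ankrd37 and Ddit4. Against macrophage-like cells, 2 of the 10 genes were higher in malignant-like cells and 2 were lower, where 23.7% and 35.4% of 5392 genes were. Against neutrophil-like cells, malignant-like cells had 3 higher and 5 lower, where 50.1% and 28.2% of all genes were. Macrophage-like against neutrophil-like cells gave 3 higher and 5 lower, where 55.7% and 15.9% of all genes were.

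**Figure D1:**
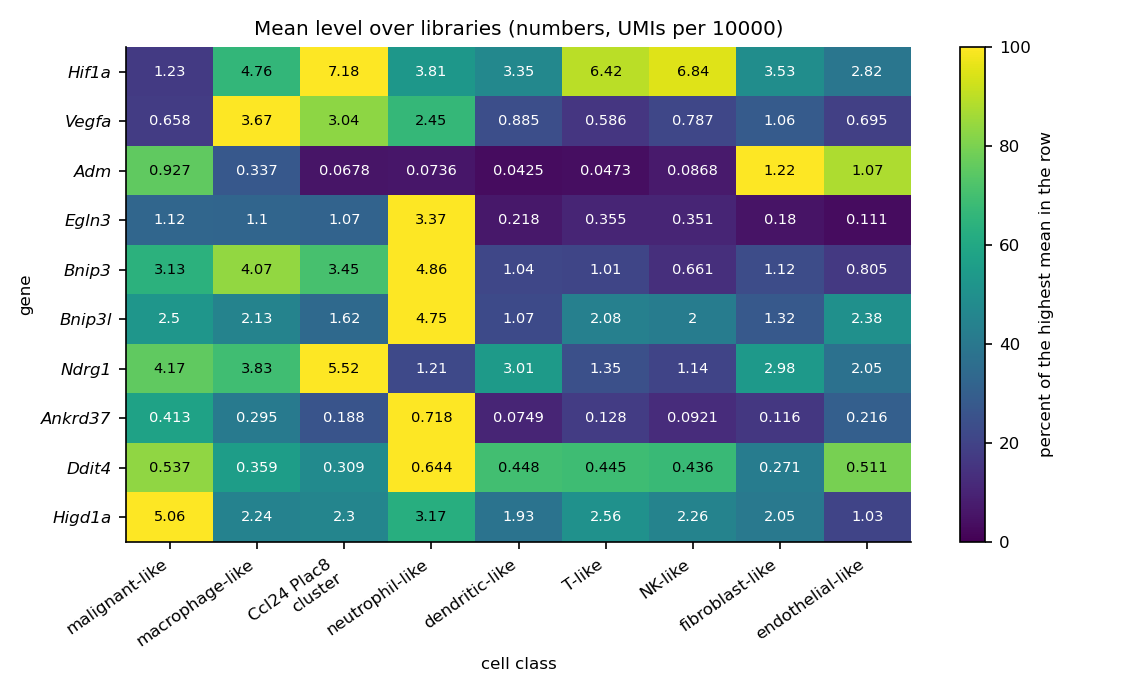
Mean level of each gene (rows) in each cell class (columns), in UMIs per 10000, averaged over libraries that had 20 or more such cells; color gives the level as a percent of the highest class in that row, so colors compare classes within a gene and not genes with each other. Higd1a peaked in malignant-like cells (5.06), Vegfa in macrophage-like cells (3.67) and Egln3 in neutrophil-like cells (3.37), while Hif1a was lowest in malignant-like cells (1.23).

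Both regulators differed between classes. Hif1a encodes the oxygen-regulated alpha subunit of HIF-1. Its level was 1.23 ± 0.346 in malignant-like, 4.76 ± 0.857 in macrophage-like and 3.81 ± 1.61 in neutrophil-like cells (SD, n = 8). It was lower in malignant-like than in macrophage-like cells in 8 of 8 libraries (log2 difference -1.81, SE 0.211, limma adjusted p = 2.55e-08) and lower than in neutrophil-like cells (-1.39, adjusted p = 1.08e-06). The difference between the 2 myeloid classes did not pass (0.42, 95% interval -0.01 to 0.86, limma adjusted p = 0.0739). It passed at clustering resolution 0.5 (limma adjusted p = 0.0179), with the hypoxia lists among the clustering genes (0.0381) and with averaged natural log values (0.013). It also passed with the low-depth cluster led by Ccl24 and Plac8 counted as macrophage (0.0174) and without wild-type library 1 (0.0471). Over all alternatives the difference ran from 0.0693 to 0.592, with adjusted p up to 0.787. Leaving out 1 library gave 0.243 to 0.523, with adjusted p up to 0.245. Egln3 encodes a prolyl hydroxylase that acts on HIF alpha subunits and is itself a HIF target. Its level was 1.12 ± 0.402, 1.10 ± 0.412 and 3.37 ± 1.08 in the same order. Neutrophil-like cells exceeded malignant-like cells in 8 of 8 libraries (malignant minus neutrophil -1.43, limma adjusted p = 1.01e-06) and macrophage-like cells in 8 of 8 (macrophage minus neutrophil -1.44, adjusted p = 1.60e-06). Malignant-like and macrophage-like cells were close in Egln3, with a difference of 0.01 (95% interval -0.43 to 0.45). With averaged natural log values malignant-like cells passed as higher (0.29, limma adjusted p = 0.0223).

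The secreted factors went opposite ways between malignant-like and macrophage-like cells. Vegfa, the main growth factor for blood vessels, was at 0.658 ± 0.199 in malignant-like, 3.67 ± 1.47 in macrophage-like and 2.45 ± 1.79 in neutrophil-like cells (SD, n = 8). It was lower in malignant-like than in macrophage-like cells in 8 of 8 libraries (-2.104, SE 0.242, limma adjusted p = 1.93e-08). Against neutrophil-like cells the difference was -1.43 (adjusted p = 5.42e-06). Macrophage-like cells exceeded neutrophil-like cells in 6 of 8 libraries (0.67, limma adjusted p = 0.0151). This call was lost without deleted library 4 (0.53, adjusted p = 0.0704) or wild-type library 1 (0.52, adjusted p = 0.0521). It was also lost without a filter on low levels (0.67, adjusted p = 0.0613) and with summed UMIs scaled by median ratios (0.46, 0.0551). Adm encodes adrenomedullin, a peptide that dilates vessels. Its level was 0.927 ± 0.672, 0.337 ± 0.371 and 0.0736 ± 0.0601. Malignant-like cells exceeded macrophage-like cells in 7 of 8 libraries (1.06, SE 0.260, limma adjusted p = 9.93e-04) and neutrophil-like cells in 8 of 8 (1.81, adjusted p = 4.14e-07).

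Adm was low in the myeloid classes. Macrophage-like Adm was highest in wild-type library 1 (1.08), where the summed keratins Krt8, Krt18 and Krt19 with Wfdc2 reached 28.1% of their level in malignant-like cells of that library and 26.1% of macrophage-like cells were mixed-marker cells, with at least 3 UMIs of malignant markers. In the other 7 libraries the keratin share was 0 to 8.69%, mixed-marker cells were 0 to 13.6% and macrophage-like Adm was 0.0458 to 0.725. Deleted library 7, at 0 for both, had Adm at 0.250, from 2 UMIs. Fibroblast-like cells had Adm at 1.22 ± 0.911 (SD, n = 8), and fibroblast markers in macrophage-like cells summed to 1.20 to 52.6 UMIs per 10000 in deleted hosts and 0.00555 to 2.73 in wild-type hosts. The part of free RNA and mixed-marker cells in the macrophage-like Adm level was not tested. In neutrophil-like cells Adm had no UMI in wild-type library 5 (342 cells) and deleted library 7 (39 cells), and its mean was below the filter on low levels in this class. The macrophage excess of Adm over neutrophils (0.76, limma adjusted p = 0.0113) was lost without wild-type library 1 (0.56, adjusted p = 0.0629). It was also lost without the filter on low levels (adjusted p = 0.0650) and with a pseudocount of 1 (0.0552).

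Genes of mitochondrial proteins were split between the classes. Bnip3 and Bnip3l encode outer membrane receptors that deliver mitochondria to autophagosomes, and Higd1a encodes an inner membrane protein that associates with the respiratory chain. Higd1a was highest in malignant-like cells (5.06 ± 2.28, against 2.24 ± 0.950 in macrophage-like and 3.17 ± 1.05 in neutrophil-like cells, SD, n = 8). The excess over macrophage-like cells held in 8 of 8 libraries (1.09, SE 0.196, limma adjusted p = 2.64e-05), and that over neutrophil-like cells in 7 of 8 (0.61, adjusted p = 0.00594). Macrophage-like cells had less Higd1a than neutrophil-like cells (-0.47, limma adjusted p = 0.0323). This call was lost without deleted library 3, 7 or 8 or wild-type library 5 or 6 (adjusted p 0.0602 to 0.105). Dropping the filter on low levels also ended it (adjusted p = 0.0554). Bnip3l was highest in neutrophil-like cells (4.75 ± 0.934, against 2.50 ± 0.854 and 2.13 ± 0.518), in 8 of 8 libraries against either class (malignant minus neutrophil -0.92, limma adjusted p = 1.19e-04; macrophage minus neutrophil -1.10, adjusted p = 1.75e-05). Bnip3 was also highest in neutrophil-like cells by mean level, at 3.13 ± 1.46 in malignant-like, 4.07 ± 1.18 in macrophage-like and 4.86 ± 1.51 in neutrophil-like cells. Its malignant against neutrophil difference passed (-0.68, limma adjusted p = 0.00499, 8 of 8 libraries), but not with summed UMIs scaled by median ratios (-0.41, adjusted p = 0.0808). Its malignant against macrophage difference did not pass (-0.47, limma adjusted p = 0.0578). It passed at clustering resolution 0.5 (0.0357), without mixed-marker cells (0.0412) and with the cluster led by Ccl24 and Plac8 counted as macrophage (0.0354). It also passed without wild-type library 6 (0.0344) or deleted library 7 (0.0455). Over all alternatives this difference ran from -0.527 to 0.143, with adjusted p up to 0.992. Leaving out 1 library gave -0.579 to -0.285, with adjusted p up to 0.249. Neutrophil-like cells were the shallowest class, with median UMIs of 667 to 1937 per cell. Thinning to 1000 UMIs ended the calls of Bnip3 (-0.19, limma adjusted p = 0.199) and Bnip3l (-0.15, adjusted p = 0.268) between malignant-like and neutrophil-like cells. It left out cells with fewer UMIs, keeping 44 of 342 neutrophil-like cells in wild-type library 5. Deleted library 7 kept 10 of 39 and fell out of the comparison of classes. Thinned values are means of log values per cell, so they are on another scale than -0.68 and -0.92. The part of depth in the lost calls was not tested.

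Ndrg1, a cytoplasmic protein induced by hypoxia and other stress, was low in neutrophils. Its level was 4.17 ± 1.68 in malignant-like, 3.83 ± 1.92 in macrophage-like and 1.21 ± 0.821 in neutrophil-like cells (SD, n = 8), and both of the former exceeded neutrophil-like cells in 8 of 8 libraries (1.69, limma adjusted p = 1.29e-08, and 1.53, adjusted p = 1.47e-07). Malignant-like and macrophage-like cells differed by 0.16 (95% interval -0.25 to 0.56), which did not pass (limma adjusted p = 0.513). Malignant-like cells were higher in 7 of 8 libraries. The difference passed with summed UMIs scaled by median ratios (0.68, adjusted p = 0.00791) and with averaged natural log values (0.55, 0.00334). It was -0.036 at clustering resolution 0.5 and -0.0336 with the cluster led by Ccl24 and Plac8 counted as macrophage. Ankrd37, which encodes an ankyrin repeat protein, was at 0.413 ± 0.249, 0.295 ± 0.186 and 0.718 ± 0.377, and the macrophage deficit against neutrophils passed (-0.83, limma adjusted p = 0.00676). Ddit4 encodes REDD1, an inhibitor of the growth kinase complex mTORC1 that also responds to glucocorticoids and to the integrated stress response. It was at 0.537 ± 0.213, 0.360 ± 0.143 and 0.644 ± 0.319, and the macrophage deficit against neutrophils passed (-0.52, adjusted p = 0.0262). It no longer passed when wild-type library 1, 2, 5 or 6 or deleted library 8 was left out (adjusted p 0.0619 to 0.122). Nor did it pass without the filter on low levels (adjusted p = 0.0706). Malignant-like cells also passed as higher than macrophage-like cells with summed UMIs for Bnip3l (0.54, limma adjusted p = 0.00562) and Ddit4 (0.71, 0.00324). Averaged natural log values did the same for Ankrd37 (0.18, 0.00760), Bnip3l (0.48, 0.0145) and Ddit4 (0.20, 0.00135). So did the hypoxia lists among the clustering genes for Ddit4 (0.49, 0.0377). Thinning to 1000 UMIs also ended the macrophage against neutrophil calls of Adm (adjusted p = 0.259), Ankrd37 (0.115), Bnip3l (0.132), Ddit4 (0.866) and Higd1a (0.900). Averaging the deposited natural log values ended the malignant against neutrophil calls of Egln3 (-0.19, adjusted p = 0.112), Vegfa (-0.20, 0.202), Bnip3 (0.20, 0.329) and Bnip3l (0.14, 0.454). With it Ddit4 passed as higher in malignant-like than in neutrophil-like cells (0.17, limma adjusted p = 0.00251). It also ended the macrophage against neutrophil calls of Adm (adjusted p = 0.281), Ankrd37 (0.160), Bnip3l (0.0775), Ddit4 (0.716) and Higd1a (0.878).

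Beyond these classes, Hif1a was highest in a cluster of 1824 low-depth myeloid cells led by Ccl24 and Plac8 (7.18 ± 1.90, n = 8), in NK-like cells (6.84 ± 2.67, n = 7) and in T-like cells (6.42 ± 1.55, n = 8), whose ranges overlapped. By genotype, NK-like Hif1a was at 4.15 ± 0.235 in wild-type (n = 3) and 8.86 ± 1.25 in deleted hosts (n = 4). T-like Hif1a was at 5.36 ± 1.36 and 7.49 ± 0.858 (n = 4 each). In the Ccl24 and Plac8 cluster Hif1a went the other way, at 8.20 ± 2.08 and 6.16 ± 1.13 (n = 4 each). In T-like cells Egln3 was at 0.355 ± 0.197 and Bnip3 at 1.01 ± 0.384, below their means in the 3 classes, while Higd1a (2.56 ± 0.869), Bnip3l (2.08 ± 0.516) and Ddit4 (0.445 ± 0.283) were near or above their macrophage-like means. T-like Ddit4 was at 0.218 ± 0.0882 in wild-type and 0.672 ± 0.203 in deleted hosts (n = 4 each). Ddit4 went the other way in the Ccl24 and Plac8 cluster (0.447 ± 0.436 and 0.171 ± 0.127) and in dendritic-like cells (0.605 ± 0.254, n = 3, and 0.330 ± 0.138, n = 4). Adm was highest in fibroblast-like cells, and its range there (0.400 to 3.18) overlapped that in malignant-like cells (0.119 to 1.94). These levels outside the 3 classes were not tested.

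In the comparison of host genotypes no gene of the group passed. Of 29 tests (Adm was below the filter in neutrophil-like cells), 0 had a limma adjusted p under 0.05. With the barcode set as a term, 0 of 29 passed as well. Calls among all genes were rare, at 0.385%, 0.036% and 0.292% in malignant-like, macrophage-like and neutrophil-like cells, and at 2.03%, 1.62% and 1.81% with the barcode set as a term. In malignant-like cells 8 of the 10 genes lay lower in deleted hosts, with a median log2 difference of -0.71 where the median of all 5459 genes was -0.06. Macrophage-like cells had 7 lower and 3 higher, with a median of -0.18 where all 5548 genes had 0.03. Neutrophil-like cells had 6 lower and 3 higher, with a median of -0.23 where all 3767 genes had 0.22.

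**Figure D2:**
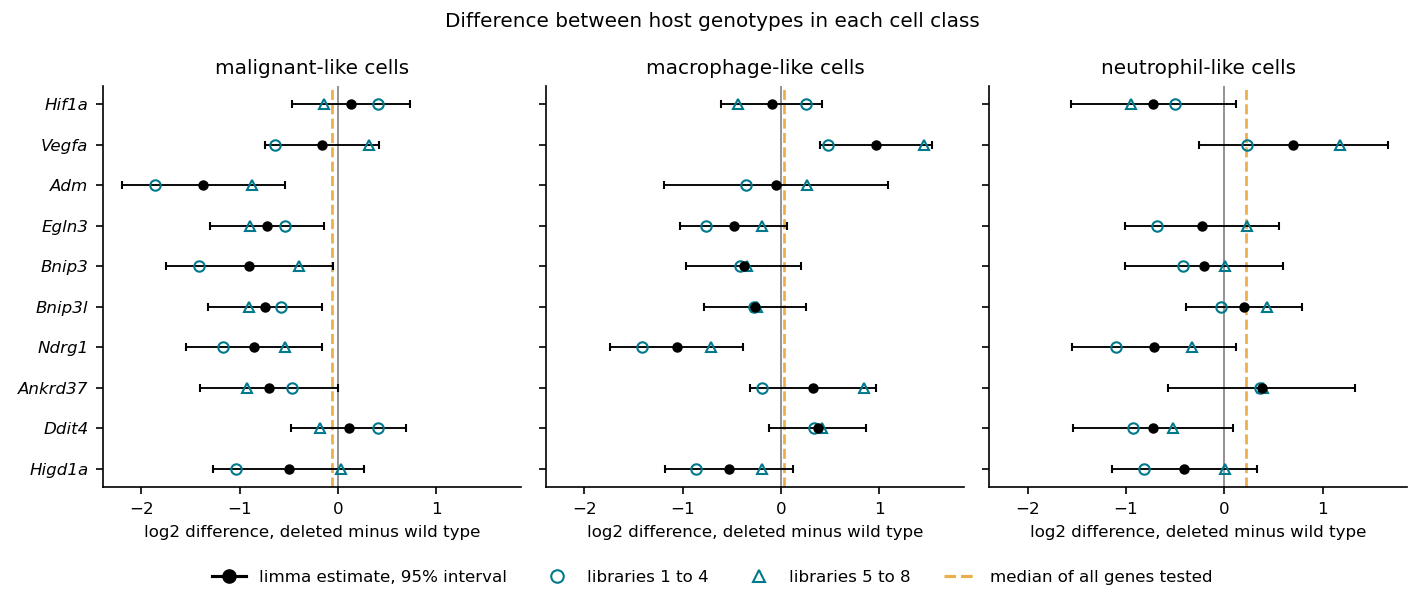
Difference in log2(level + 0.2) between deleted and wild-type hosts for each gene in each class, with 95% intervals from limma (black), the differences within libraries 1 to 4 and 5 to 8 (open symbols) and the median of all genes tested (dashed). In malignant-like cells 8 of 10 estimates lie below 0, from -1.37 for Adm, while Vegfa in macrophage-like cells lies at 0.96.

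Adm had the lowest adjusted p of the group in malignant-like cells. It was at 1.94, 1.79, 0.659 and 1.22 UMIs per 10000 in libraries 1, 2, 5 and 6 of wild-type hosts, against 0.812, 0.119, 0.641 and 0.231 in libraries 3, 4, 7 and 8 of deleted hosts. Wild-type library 5 lay below deleted library 3, so the groups overlapped. The difference was -1.37 (SE 0.386, limma adjusted p = 0.186, unadjusted 0.00327), with -1.86 within libraries 1 to 4 and -0.88 within libraries 5 to 8.

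Egln3 and Bnip3l were the 2 genes of 10 whose malignant-like levels did not overlap between the genotypes. Over all genes tested there, 5.53% were lower without overlap in deleted hosts and 1.3% higher. Egln3 was at 1.27, 1.27, 1.49 and 1.65 in libraries 1, 2, 5 and 6 of wild-type hosts, against 1.05, 0.618, 0.480 and 1.12 in libraries 3, 4, 7 and 8 of deleted hosts (-0.72, SE 0.270, limma adjusted p = 0.349). Bnip3l was at 3.13, 3.49, 2.41 and 3.67 against 2.27, 2.02, 1.74 and 1.28 (-0.75, SE 0.269, adjusted p = 0.322). The gap between the groups was narrow for both, at 1.12 against 1.27 for Egln3 and 2.27 against 2.41 for Bnip3l.

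Bnip3 and Ndrg1 also lay lower, with overlap. Bnip3 was at 3.36, 3.34, 4.04 and 4.95 in wild-type and at 1.45, 0.871, 4.61 and 2.44 in deleted libraries (-0.90, SE 0.395, limma adjusted p = 0.438), deleted library 7 lying inside the wild-type range. Ndrg1 was at 6.50, 5.25, 5.93 and 3.75 against 1.77, 3.47, 4.41 and 2.30 (-0.85, SE 0.323, adjusted p = 0.356), with only deleted library 7 above the lowest wild-type library. Ankrd37 was at 0.453, 0.604, 0.374 and 0.695 against 0.731, 0.0949, 0.185 and 0.168 (-0.70, adjusted p = 0.474). Its deleted library 3 was the highest of all 8, from 41 cells. Higd1a was at 6.21, 9.74, 2.73 and 5.93 against 4.38, 3.12, 4.96 and 3.44 (-0.50, adjusted p = 0.716), and its difference was -1.03 within libraries 1 to 4 and 0.03 within libraries 5 to 8.

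Hif1a, Vegfa and Ddit4 gave small pooled differences in malignant-like cells, with opposite signs in the 2 barcode sets. The pooled differences were 0.13 (95% interval -0.47 to 0.74), -0.16 (-0.74 to 0.41) and 0.11 (-0.47 to 0.70), so the data leave room for changes of either sign. Within libraries 1 to 4 and within libraries 5 to 8 they were 0.41 and -0.14 for Hif1a, -0.64 and 0.32 for Vegfa, and 0.40 and -0.18 for Ddit4. Hif1a levels ran from 0.898 to 1.44 in wild-type and from 0.747 to 1.73 in deleted hosts.

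In 2 malignant clusters the few genes named here lay lower in deleted hosts. The other genes of the group are not given for these clusters, so the direction of the group within them is not shown. In the cluster led by Hspb1, Krt19 and Msln, with enough cells in wild-type libraries 1, 2 and 5 and deleted libraries 3 and 4, Adm was 1.82 ± 0.247 against 0.289 ± 0.042 and Bnip3l 3.38 ± 0.144 against 2.097 ± 0.223 (SD). In the cluster led by Prl2c2, Prl2c3 and Gapdh, from wild-type libraries 5 and 6 and deleted libraries 7 and 8, Bnip3 was 6.09 ± 1.11 against 2.93 ± 0.995 and Egln3 1.72 ± 0.157 against 0.884 ± 0.689. In 2 other malignant clusters the values were mixed. In the cluster led by Hist1h2ap and Ube2c, which encode cell division proteins, wild-type libraries 5 and 6 against deleted library 7 alone gave 2.06 against 3.30 for Bnip3, 3.30 against 4.53 for Ndrg1 and 0.284 against 0.398 for Adm, but 1.38 against 0.441 for Egln3. In the cluster led by Hbb-bs and 2200002D01Rik, with 4 wild-type and 3 deleted libraries, Bnip3 was close (3.21 ± 1.76 against 2.85 ± 2.84) and Bnip3l lower (2.65 ± 0.298 against 1.49 ± 0.520). These values have 1 to 4 libraries a group and were not tested. Macrophage markers in malignant-like cells summed to 0.535 to 2.40 UMIs per 10000 in wild-type hosts and 0.430 to 12.04 in deleted hosts (13 of 13 detected in each), and fibroblast markers to 0.0932 to 1.97 and 0.962 to 15.4 (7 of 7 in each). Mean mitochondrial shares were 4.18% to 6.18% and 1.84% to 3.15%. The part of these values, and of the depth gap and the cluster shares given above, in the genotype differences was not tested. When the deposited natural log values were averaged instead of UMI levels, Adm (-0.49, limma adjusted p = 0.0244), Bnip3l (-0.75, 0.0170), Egln3 (-0.53, 0.0101) and Ndrg1 (-0.92, 0.0420) passed, along with 891 genes in all, but that mean depends on the depth of each cell.

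**Figure D3:**
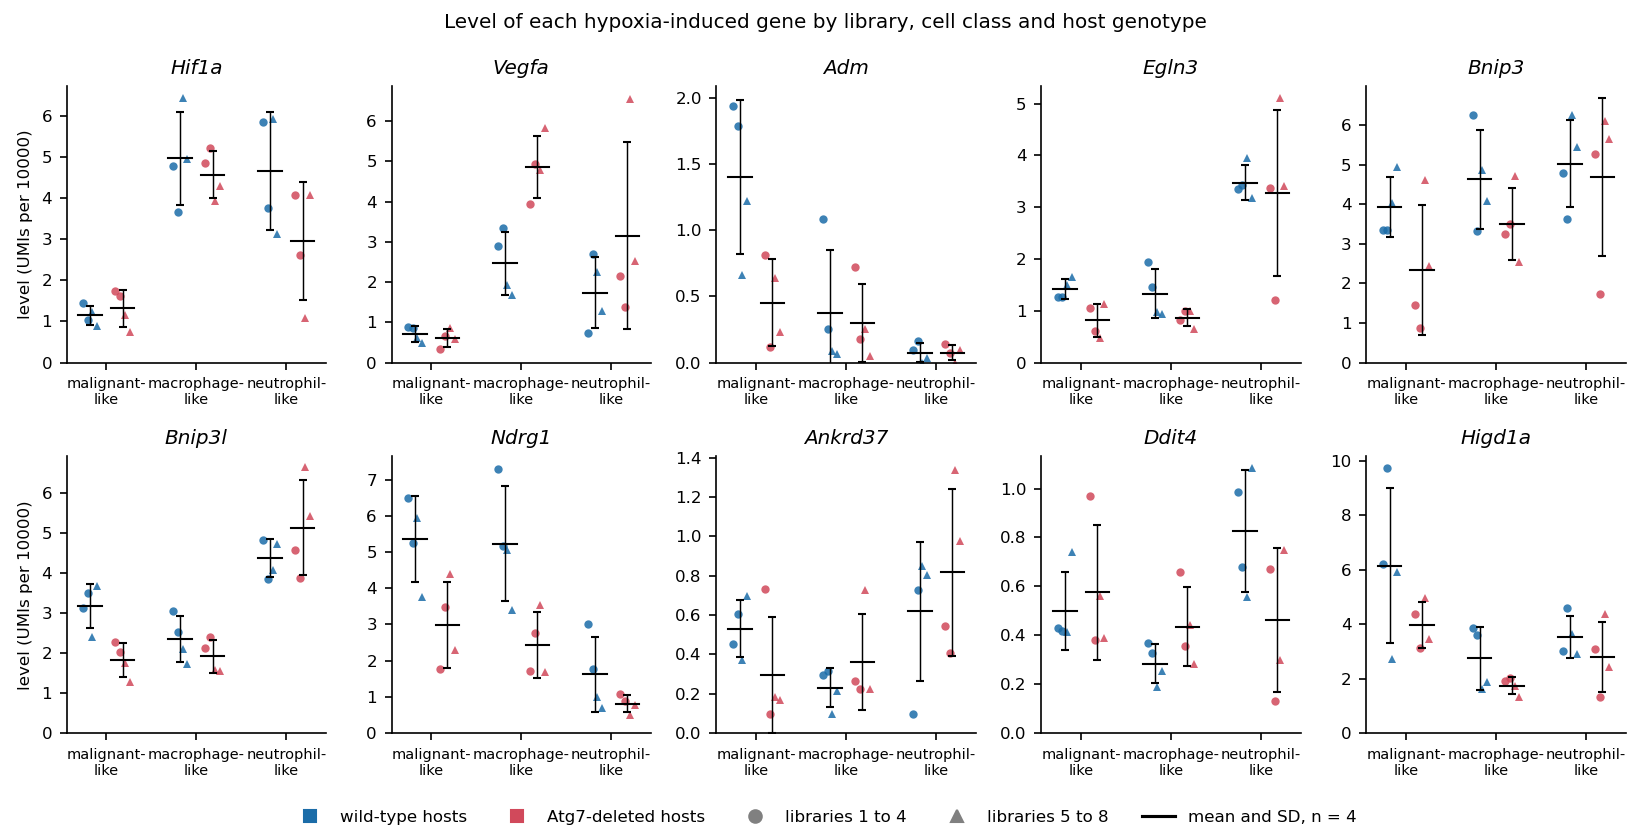
Level of each gene (UMIs per 10000, linear axis from 0) in every library, by class and host genotype, with the mean and SD of the 4 libraries of a genotype; circles are libraries 1 to 4 and triangles libraries 5 to 8. Macrophage-like Vegfa is separated by genotype (1.69 to 3.35 against 3.93 to 5.82), while malignant-like Adm overlaps (0.659 to 1.94 against 0.119 to 0.812).

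Of the 3 classes compared, macrophage-like cells were the one in which Vegfa levels did not overlap between genotypes. Vegfa was at 2.89, 3.35, 1.94 and 1.69 in libraries 1, 2, 5 and 6 of wild-type hosts, against 3.93, 4.94, 4.78 and 5.82 in libraries 3, 4, 7 and 8 of deleted hosts. Every deleted library lay above every wild-type library, which held higher for 3.46% and lower for 2.56% of all genes tested in this class. The mean was 2.47 ± 0.786 against 4.87 ± 0.772 (SD, n = 4 each), a ratio of 1.97 (log2 difference 0.96, SE 0.257, limma adjusted p = 0.301, unadjusted 0.00339). It was 0.48 within libraries 1 to 4 and 1.45 within libraries 5 to 8, and with the barcode set as a term the adjusted p was 0.0522. Mean Vegfa was also higher in deleted hosts, untested, in the cluster led by Ccl24 and Plac8 (2.19 ± 0.764 against 3.89 ± 1.45), in T-like cells (0.210 ± 0.192 against 0.961 ± 0.473) and in fibroblast-like cells (0.772 ± 0.443 against 1.35 ± 0.487, SD, n = 4 each). NK-like cells had 0.643 ± 0.215 (n = 3) against 0.896 ± 0.103 (n = 4). Dendritic-like cells went the other way, with 1.09 ± 0.613 (n = 3) in wild-type and 0.735 ± 0.384 (n = 4) in deleted hosts.

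Ndrg1 was the other gene of this class with a large difference, in the opposite direction. It was at 7.30, 5.18, 5.05 and 3.41 in wild-type and at 1.72, 2.77, 3.55 and 1.68 in deleted libraries. Deleted library 7 lay just above wild-type library 6, so the groups overlapped. The mean was 5.24 ± 1.60 against 2.43 ± 0.903, a wild-type to deleted ratio of 2.16 (-1.06, SE 0.304, limma adjusted p = 0.341, unadjusted 0.00522, with the barcode set as a term 0.0690).

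The other 8 genes differed less in macrophage-like cells. Higd1a (3.87, 3.59, 1.61 and 1.88 against 1.89, 2.02, 1.72 and 1.31) and Egln3 (1.95, 1.46, 0.978 and 0.928 against 0.828, 0.998, 0.990 and 0.648) were highest in wild-type libraries 1 and 2, with differences of -0.53 (limma adjusted p = 0.647) and -0.48 (0.599). Bnip3 (-0.38), Bnip3l (-0.26), Hif1a (-0.10) and Adm (-0.05) lay lower and Ddit4 (0.37) and Ankrd37 (0.32) higher, all within overlapping ranges and with adjusted p up to 0.983.

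Composition moved with the genotype among macrophage-like cells of libraries 1 to 4, and little in libraries 5 to 8. A cluster led by Mmp13 and Inhba held 48.6% of these cells in wild-type library 1 and 78.4% in wild-type library 2. Deleted libraries 3 and 4 were mostly in clusters led by Cbr2, Chil3 and Mmp12. A cluster led by Pf4 and Lgmn held 36.3% and 16.0% in libraries 1 and 2, and 2.5% and 4.2% in deleted libraries 3 and 4 (53 and 63 cells). It held 99.6% and 98.1% in wild-type libraries 5 and 6, and 93.9% and 94.0% in deleted libraries 7 and 8. In that last cluster, present in all 8 libraries, Vegfa was 1.75 ± 0.113 in wild-type and 3.79 ± 1.84 in deleted hosts (SD, n = 4 each). Deleted library 3, with 53 cells, was at 1.32, below the wild-type range. Ndrg1 there was 4.73 ± 1.65 (3.39 to 6.99) against 1.95 ± 1.05 (1.31 to 3.52). Tumor and fibroblast markers also differed. The 9 malignant markers summed to 1.11 to 10.9 UMIs per 10000 in macrophage-like cells of wild-type hosts (7 detected, Krt7 and Epcam at 0) and to 0.124 to 2.62 in deleted hosts (9 detected), and fibroblast markers are given above. The part of free RNA and composition in the Ndrg1 and Vegfa differences was not tested. Vegfa in malignant-like cells (0.477 to 0.879 in wild-type hosts) lay below that in macrophage-like cells of every library.

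Neutrophil-like cells showed no gene of the group without overlap, where 8.36% of all genes were higher and 2.23% lower without overlap. Hif1a was at 5.84, 3.74, 5.93 and 3.12 in wild-type and at 4.06, 2.61, 1.08 and 4.07 in deleted libraries (-0.72, SE 0.391, limma adjusted p = 0.368). Vegfa was at 0.742, 2.69, 2.24 and 1.27 against 2.15, 1.39, 6.56 and 2.52 (0.70, SE 0.450, adjusted p = 0.453), where the value of deleted library 7 came from 39 cells. Ndrg1 was at 3.02, 1.76, 0.991 and 0.700 against 1.07, 0.872, 0.503 and 0.772 (-0.72, adjusted p = 0.375). Ddit4 was at 0.988, 0.678, 0.555 and 1.08 against 0.672, 0.132, 0.297 and 0.747 (-0.72, adjusted p = 0.357, the lowest of this class). Higd1a (-0.41), Egln3 (-0.23), Bnip3 (-0.21), Bnip3l (0.20) and Ankrd37 (0.38) had intervals that spanned 0.

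Whether the genotype difference itself differed between classes was tested by an interaction term, and no gene of the group passed. Interactions were called for 0.111% of genes between malignant-like and macrophage-like cells, for 3.43% between malignant-like and neutrophil-like cells and for 0.872% between macrophage-like and neutrophil-like cells. The Vegfa difference was -0.16 in malignant-like and 0.96 in macrophage-like cells, and the difference of differences was -1.13 (SE 0.430, limma adjusted p = 0.529). For Adm it was -1.32 (SE 0.433, adjusted p = 0.411) against macrophage-like cells. With averaged natural log values both passed (Vegfa -0.77, limma adjusted p = 0.0371, and Adm -0.45, 0.0127), a mean that depends on the depth of each cell. Adm was below the filter on low levels in neutrophil-like cells, so its value against that class (-1.40, adjusted p = 0.0685, and 0.0234 without deleted library 7, 0.0386 with a pseudocount of 1 and 0.00496 with averaged natural log values) restates the malignant-like difference of -1.37. For Ddit4 the macrophage minus neutrophil value was 1.09 (adjusted p = 0.126), which passed without deleted library 8 (1.43, adjusted p = 0.0339).

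Across single cells of a library, most of the genes varied together in malignant-like cells. Pearson correlations of each gene's log value with the mean of the other 9 were computed in libraries with at least 50 cells of sufficient depth (5000 UMIs for malignant-like, 2000 for macrophage-like and 1000 for neutrophil-like cells). They share the library and the cell's depth and are given as descriptions. In malignant-like cells of 5 libraries (88 to 3435 cells) the median r was 0.643 for Bnip3 (0.454 to 0.814), 0.576 for Higd1a, 0.532 for Adm (0.169 to 0.683), 0.511 for Ndrg1, 0.490 for Bnip3l and 0.398 for Vegfa. It was 0.252 for Egln3 and 0.243 for Ddit4. For Hif1a it was 0.000 (-0.101 to 0.172). In sparse counts a low r of this kind says little about the gene. Only 1 of the 5 libraries, deleted library 7 with 88 cells, came from a deleted host, and it gave the lowest value for Adm.

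**Figure D4:**
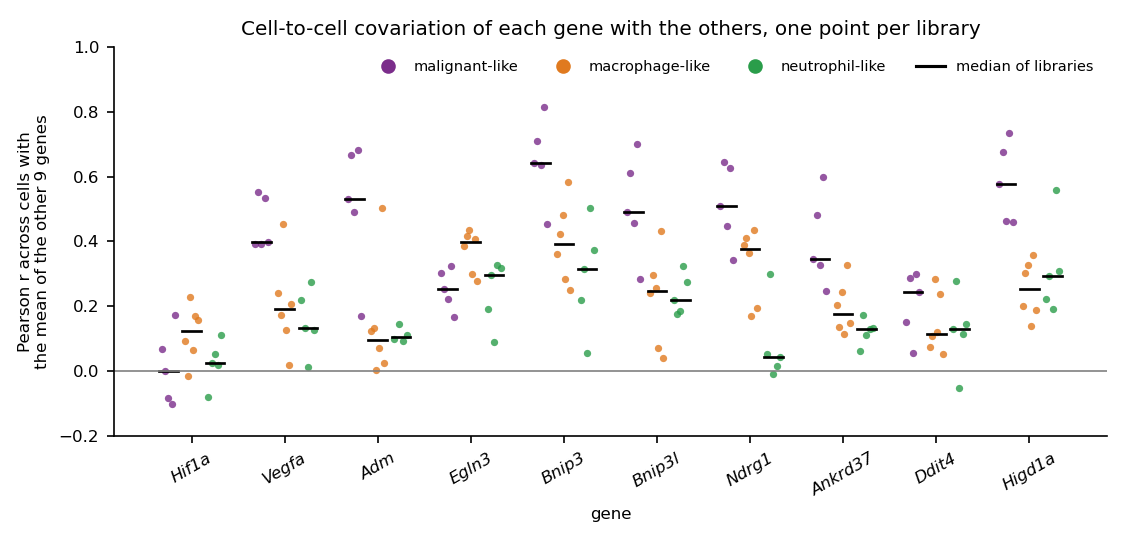
Pearson r across cells between each gene and the mean of the other 9, one point per library with enough deep cells, with the median over libraries as a black bar. Malignant-like points for Bnip3 lie at 0.454 to 0.814 and those for Hif1a at -0.101 to 0.172, and the myeloid classes lie lower for Bnip3, Adm and Higd1a.

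In each of the myeloid classes, which were also read at lower depth, the median r was lower than in malignant-like cells for 8 of the 10 genes and higher for Egln3 and Hif1a. In macrophage-like cells of 6 libraries the median r was highest for Egln3 (0.397), Bnip3 (0.392) and Ndrg1 (0.378), and it was 0.191 for Vegfa, 0.125 for Hif1a and 0.097 for Adm. In neutrophil-like cells of 5 libraries it was 0.316 for Bnip3, 0.298 for Egln3, 0.293 for Higd1a, 0.044 for Ndrg1 and 0.025 for Hif1a. Among other known hypoxia targets, the malignant-like cells' mean of the 10 genes tracked Ero1l (median r 0.684), Pgk1 (0.579), Slc2a1 (0.560), Fam162a (0.543) and Tpi1 (0.514), which encode an oxidoreductase of protein folding, 2 glycolytic enzymes, a glucose transporter and a mitochondrial protein. For comparison, the median r was -0.130 for Actb, 0.211 for B2m and 0.214 for Eef1a1.

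Across the 24 points given by 3 classes and 8 libraries, the genes most like the mean of the group were Ero1l (Pearson r 0.777), Slc2a1 (0.718), Gys1 (0.650), Pfkl (0.645), Pfkp (0.630), Aff4 (0.610), Derl1 (0.589) and Fndc3a (0.578). The points share libraries, classes and depth, so these values only rank the genes.

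Other genes of the pathway gave no call in the genotype comparison. Of 44 other hypoxia targets, 31 were tested in malignant-like cells, and 22 lay lower and 9 higher in deleted hosts with a median of -0.25. In macrophage-like cells 15 lay lower and 16 higher (median 0.05), and in neutrophil-like cells 17 lower and 12 higher (median -0.08). The 2 largest differences in malignant-like cells were Nos2, inducible nitric oxide synthase (2.00 ± 1.25 against 5.55 ± 4.30, log2 difference 1.31, limma adjusted p = 0.306), and Ero1l (6.17 ± 1.45 against 2.73 ± 1.66, -1.26, adjusted p = 0.210). In macrophage-like cells they were the glycolytic enzyme gene Eno1 (-0.86, adjusted p = 0.848), whose counts are uncertain because a near-identical copy can share its reads, and Nos2 (0.83, adjusted p = 0.676). In neutrophil-like cells they were Nos2 (1.48, adjusted p = 0.162) and Klf4 (1.25, adjusted p = 0.248). With the barcode set as a term, Fam162a (-1.20, adjusted p = 0.0243) and the glucose transporter gene Slc2a3 (-1.21, 0.0234) were lower and the lipid droplet gene Plin2 (0.97, 0.0262) higher in malignant-like cells. In that fit Eno1 was lower in macrophage-like cells (0.0427) and Klf4 higher in neutrophil-like cells (0.0411).

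Among 12 genes of the HIF machinery, 7, 8 and 7 were tested in malignant-like, macrophage-like and neutrophil-like cells and none passed (medians -0.06, -0.10 and 0.16). The largest were Egln1 in malignant-like cells (-0.41) and Elob in macrophage-like cells (-0.60). Among receptors and relatives of Vegfa, 3, 2 and 0 genes were tested, with Nrp1 at -0.54 in malignant-like and 0.33 in macrophage-like cells. Of the adrenomedullin receptor only Ramp3 in macrophage-like cells was tested (-0.33). Of 13 mitophagy genes present, 10, 10 and 9 were tested and none passed. With the barcode set as a term the mitophagy receptor gene Optn was lower in neutrophil-like cells (1.31 ± 0.206 against 0.462 ± 0.122, -1.20, limma adjusted p = 0.0411). Of the mTORC1 genes around Ddit4, 4, 2 and 2 were tested and none passed, with Deptor at -0.78 and Rheb at -0.60 in malignant-like cells. Of relatives of the 10 genes by sequence, 4, 3 and 3 were tested and none passed, with Adm2 at -0.40 in malignant-like cells and Egln2 at 0.34 in macrophage-like cells.

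Ddit4 also belongs to stress programs, whose other genes were read in the same fits. Of the integrated stress response 8, 4 and 5 genes were tested, with medians of -0.33, 0.38 and -0.42. Asns was at -0.68 and Psat1 at -0.66 in malignant-like cells, and Ddit3 at -0.88 in neutrophil-like cells. In macrophage-like cells Cebpb and Atf4 were both at 0.47. Of 7 glucocorticoid targets 5, 5 and 4 were tested, with medians of 0.38, 1.00 and 0.86. Of 15 genes of the response to tissue dissociation 14, 15 and 15 were tested, with medians of 0.11, 0.51 and -0.07. None of these passed without the barcode set as a term. With it, Sgk1 (1.28, limma adjusted p = 0.0174), Tsc22d3 (1.29, 0.0410), Dusp1 (1.00, 0.0338), Fos (1.11, 0.0364), Fosb (1.08, 0.0272), Junb (1.01, 0.0422) and Nr4a1 (0.83, 0.0408) were higher in macrophage-like cells of deleted hosts, and Dusp1 (1.21, 0.0499) in malignant-like cells. Ddit4 in macrophage-like cells was 0.284 ± 0.0812 against 0.435 ± 0.162. The part of sample handling in these values was not tested.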

How the data were processed

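Single-cell RNA was measured with a 10x Genomics 5′ kit in 8 tumor libraries, 4 per host genotype, after dissociation, filtering and density centrifugation, per the labels' protocols. Cell Ranger 2.1, Seurat 3.0 and mm10 appear in the submitters' processing notes without further detail. The authors deposited natural log values, ln(1 + 10000 × the gene's share of the cell's UMIs), a unit read from the values, and whole UMIs were recovered for 100% of values within 0.01 UMI. Deposited cells had at least 498 UMIs and 201 to 5000 genes. Cells over 10% mitochondrial UMIs or under 200 genes were removed (919). No doublet caller was run, and leaving out cells with markers of 2 classes was an alternative.

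Cells were clustered in scanpy 1.11.5 on 2000 variable genes without the hypoxia lists, 30 principal components and 15 neighbors, by Leiden (igraph 0.11.9) at resolution 1. Clusters were named from fixed marker lists, with details of the naming rule set after the clusters were seen. Levels were tested with limma 3.58.1 (R 4.3.3, trend) on log2(level + 0.2) for genes with a mean level of at least 0.2, with Benjamini-Hochberg adjustment. A class entered with at least 20 cells per library. The script was tested on simulated data. All 10 genes are named, and of each other list the genes that passed (at most 5) or else the 2 with the largest differences, of which some are given here, and the 8 genes most like the group's mean. Members and lists were chosen with earlier results of these data known. Genes overlapping Hif1a, Adm, Bnip3, Ndrg1, Ankrd37 or Higd1a on the opposite strand are annotated, and use of strand in counting is not given in the sources used here. Whole UMIs limit precision most in neutrophil-like cells and in malignant-like cells of deleted hosts. One allele that the hosts of both genotypes share is not reported here.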

Additional observations from a re-analysis of the deposited data

Results flagged for a closer look

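In 4 of 60 groups of 4 libraries, 1 library lay far from the other 3 for its group's range, where chance alone gives about 1 group in 20. Ddit4 in malignant-like cells was 0.739 UMIs per 10000 in wild-type library 6 and 0.412 to 0.431 in the other wild-type libraries. Ankrd37 in malignant-like cells was 0.731 in deleted library 3, from 13 UMIs in 41 cells, and 0.0949 to 0.185 in the other deleted libraries. In macrophage-like cells Ankrd37 was 0.726 in deleted library 7 and at most 0.263 in the other deleted libraries. In neutrophil-like cells Ankrd37 was 0.0952 in wild-type library 1, from 1 UMI in 65 cells, and 0.728 to 0.848 in the other wild-type libraries.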

How the results depend on the processing

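No paired analysis was possible because the 2 genotypes share no replicate numbers. Of 290 genotype differences of single genes recomputed under the alternatives, 274 kept their direction and call, 4 passed the threshold and 12 changed sign. Some of the 290 could not change sign. The barcode set term and dropping the filter leave each estimate as it was. Counting the Ccl24 and Plac8 cluster as macrophage leaves the genotype differences of the other classes as they were. Of 270 differences between classes 217 kept both, 20 lost the call, 19 gained it and 14 changed sign. The numbers of genes called by genotype in malignant-like, macrophage-like and neutrophil-like cells were 21, 2 and 11. With the barcode set as a term they became 111, 90 and 68. Thinned to 1000 UMIs, cells gave 0, 0 and 4, and the mean of the deposited natural log values gave 891, 0 and 2. Without a filter on low genes they were 280, 0 and 0, and with summed UMIs scaled by median ratios 63, 11 and 0. Macrophage-like cells gave 1 at resolution 0.5, 1 with the hypoxia lists among the clustering genes and 1 with the Ccl24 and Plac8 cluster counted in, an alternative chosen after seeing the data. Leaving out 1 library gave 2 to 48, 0 to 6 and 0 to 17. Interactions between malignant-like and macrophage-like cells were called for 6 genes, and for 29 after thinning, 14 with the lists in, 677 with log means, 129 without the filter, 20 with a pseudocount of 1, 13 with summed UMIs and 0 to 15 without 1 library. Between malignant-like and neutrophil-like cells 185 became 87 after thinning, 1617 with log means, 350 without the filter and 15 to 348 without 1 library. Between macrophage-like and neutrophil-like cells 47 became 22 after thinning, 31 at resolution 0.5, 25 with log means, 13 without the filter, 124 with summed UMIs and 4 to 88 without 1 library. Without the filter the class comparisons called 5906, 8671 and 6439 genes.

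Genotype differences that changed sign were Adm in macrophage-like cells (0.17 with the lists in, 0.15 without mixed-marker cells), Bnip3l in neutrophil-like cells (-0.0916, summed UMIs), Ddit4 in malignant-like cells (-0.0174 thinned, -0.0666 log means) and in neutrophil-like cells (0.0148 thinned), Hif1a in malignant-like cells (-0.11, log means) and in macrophage-like cells (0.24 thinned, 0.11 log means, 0.0347 summed UMIs) and Vegfa in malignant-like cells (0.0411 with the lists in, 0.20 summed UMIs). Between malignant-like and neutrophil-like cells, log means turned Ankrd37 (0.087), Bnip3 (0.20), Bnip3l (0.14) and Ddit4 (0.17), and Ddit4 also turned when thinned (0.0333) and with summed UMIs (0.14). Between malignant-like and macrophage-like cells, Bnip3 turned with log means (0.14), Egln3 at resolution 0.5 (-0.0103) and with the added cluster (-0.0153), and Ndrg1 likewise (-0.036 and -0.0336). Between macrophage-like and neutrophil-like cells Bnip3 turned when thinned (0.0214) and with log means (0.0561), and Higd1a with log means (0.0293). Leaving out 1 library moved genotype differences across 0 for Adm in macrophage-like cells (-0.40 to 0.44, above 0 without wild-type library 1 or deleted library 4 or 8), Hif1a in macrophage-like cells (-0.225 to 0.0346, wild-type library 5), Ddit4 in malignant-like cells (-0.11 to 0.26, deleted library 3), Vegfa in malignant-like cells (-0.308 to 0.0229, deleted library 3), and in neutrophil-like cells Ankrd37 (-0.0584 to 0.595, wild-type library 1), Bnip3 (-0.38 to 0.19) and Egln3 (-0.48 to 0.16), the last 2 without deleted library 4. The Egln3 difference between malignant-like and macrophage-like cells ran from -0.0916 to 0.126. The cause of these changes was not tested. Few malignant-like cells in deleted hosts and shallow neutrophil-like cells limit the precision.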
